A study of Mus musculus with 12 samples.

Results

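Ddit4 and 6 other genes known for their response to glucocorticoids were followed through the bone marrow of mice made leucopenic with cyclophosphamide. The 7 genes, of 34745 in the deposited table, were Ddit4, Tsc22d3, Fkbp5, Per1, Klf9, Sgk1 and Zbtb16. Each was found once, by its gene name. Ddit4 was chosen on the difference between leucogen and model libraries in these data, and the other 6 as textbook glucocorticoid-induced genes with earlier results of the same libraries known. Their own values are therefore given as a description, with standard errors and no p-value, and a count of them past the cutoffs used for all genes only describes the fits.

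Femoral marrow, taken whole, gave 1 RNA library from each of 12 male ICR mice, an outbred stock, in 4 groups of 3. Normal mice received no cyclophosphamide, but saline by mouth and saline injections in its place. Model mice were injected with cyclophosphamide, which alkylates DNA and is toxic to cycling cells, at 80 mg/kg per day on days 5 to 7 and were otherwise given saline. QJSB mice received the same injections and the Qi-Jing-Sheng-Bai granule by mouth at 3 g/kg per day, and leucogen mice the same injections and leucogen, a drug used to raise white cell counts, at 20 mg/kg per day, each for 1 week. All groups but normal thus carried cyclophosphamide, and a drug without it was not among the groups analysed here. The table heads its columns Blank, Model, Stilbene and Positive, which were read as normal, model, QJSB and leucogen. Blank and Positive were read by their meaning and Stilbene by elimination. Mean normalized counts that the study lists for 3 comparisons, 300 genes each, fell within 1% of those computed under this reading for all 300 genes of each, and for at most 10 genes under any other reading.

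Glucocorticoids are steroid hormones of the adrenal cortex. They enter cells and bind the glucocorticoid receptor Nr3c1, which chaperones of the Hsp90 group hold ready in the cytoplasm. The loaded receptor moves to the nucleus, binds paired short DNA elements and raises the transcription of a set of genes within hours, among them all 7 described here. In bone marrow such hormones are known to kill lymphoid precursors and to lengthen the life of neutrophils. Several of the 7 genes also answer to other signals. Ddit4 is known to rise with low oxygen, DNA damage, amino acid shortage and stress of the endoplasmic reticulum, and Per1 is a part of the circadian clock.

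Library totals ran from 11172547 to 18545198 counts. Levels are given as CPM, the count of a gene set against its library's total, scaled by TMM factors, which correct for differences in RNA composition. CPM does not correct for gene length, so genes are compared with each other only by FPKM. Marrow identity was present in the normal libraries, where the summed CPM of 11 late neutrophil markers was 18305 to 21784 and that of 10 erythroid markers 15269 to 19184. The composition differed widely between groups. Erythroid markers summed to 167 to 1774 in the 9 cyclophosphamide libraries, and late neutrophil markers to 4536 to 18749 in model, 6922 to 35536 in QJSB and 47260 to 56170 in leucogen libraries. Within their groups, model replicate 1 and QJSB replicate 1 had the lowest neutrophil sums, 4536 and 6922, and the highest sums of 13 stromal and vessel markers, 613 and 704, against 226 to 259 in the other 4 libraries of these groups. In bulk samples, fewer cells of a type and less RNA per cell cannot be told apart.

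Ddit4 encodes REDD1, an inhibitor of the growth-controlling kinase complex mTORC1. Its levels in the 3 normal libraries were 10.3, 11.3 and 9.61 CPM. Model libraries held 25.4, 17.8 and 13.4 CPM, and QJSB libraries 19.0, 26.3 and 16.0 CPM. The leucogen libraries held 1.43, 2.90 and 2.85 CPM, from raw counts of 18, 40 and 30. All 3 leucogen libraries lay below all others, the normal ones included, and the model and QJSB libraries lay above the normal ones and overlapped each other. Between leucogen and model the fitted log2 fold change was -2.96 ± 0.35 (SE, n = 3 per group), a 7.80-fold lower level. Against normal it was -2.10 ± 0.26 for leucogen, 0.85 ± 0.24 for model and 0.97 ± 0.21 for QJSB. The model value was 0.59 without model replicate 1 and from 0.81 to 0.92 without each normal library, and in these 4 fits it no longer passed the cutoffs used for all genes, a change of over 1.5-fold and an adjusted p under 0.05.

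Klf9 encodes a zinc finger transcription factor that the receptor induces directly. It was at 16.0, 13.8 and 14.5 CPM in normal, at 47.1, 35.4 and 48.4 CPM in model, at 51.8, 50.5 and 53.2 CPM in QJSB and from 19.7 to 23.3 CPM in leucogen libraries. The 4 groups did not overlap, although the lowest QJSB library and the highest model library were close. Model exceeded normal 2.93-fold, a log2 fold change of 1.55 ± 0.16, and QJSB exceeded normal by 1.81 ± 0.12. Leucogen stood at -1.04 ± 0.17 against model and at 0.52 ± 0.13 against normal.

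Fkbp5 encodes a co-chaperone that holds the receptor in a state of low hormone affinity and so closes a feedback loop. Its levels were 81.9, 93.8 and 114 CPM in normal and 245, 173 and 208 CPM in model libraries. QJSB libraries gave 231, 282 and 272 CPM, and leucogen libraries 93.0, 136 and 112 CPM. The model and QJSB libraries lay above all normal and leucogen libraries, and those latter groups overlapped. The log2 fold change was 1.10 ± 0.17 for model against normal, 1.43 ± 0.15 for QJSB against normal and -0.86 ± 0.18 for leucogen against model, while leucogen and normal differed by 0.25 ± 0.16. Without leucogen replicate 3 the leucogen value stayed at -0.86 but missed the cutoffs.

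Tsc22d3 encodes GILZ, a leucine zipper protein that carries part of the anti-inflammatory action of glucocorticoids in leucocytes. Normal libraries held 209, 169 and 128 CPM, model libraries 175, 195 and 165 CPM and QJSB libraries 135, 193 and 232 CPM. These 3 groups overlapped throughout. The leucogen libraries, at 95.8, 115 and 79.1 CPM, lay below all of them. Leucogen differed from model by a log2 fold change of -0.87 ± 0.16 and from normal by -0.78 ± 0.20, whereas model and normal differed by 0.07 ± 0.18.

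Per1, a repressor in the circadian clock whose promoter is also bound by the receptor, followed the same order. It was at 71.8, 49.2 and 51.5 CPM in normal, 70.8, 59.9 and 65.7 CPM in model, and 70.9, 94.4 and 101 CPM in QJSB libraries. The leucogen libraries held 21.2, 34.3 and 19.8 CPM. Model and normal overlapped, with a log2 fold change of 0.18 ± 0.17, and leucogen lay below both, by -1.37 ± 0.21 against model and -1.18 ± 0.24 against normal. QJSB against normal was 0.62 ± 0.19 with groups that overlapped, and this value missed the cutoffs in 5 of 13 alternatives.

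Sgk1 encodes a kinase of the AKT family that controls ion transport and cell survival. The normal libraries, at 40.7, 44.6 and 38.6 CPM, exceeded the model libraries, at 21.4, 26.0 and 36.1 CPM. QJSB libraries ran from 23.8 CPM in replicate 1 to 65.0 and 50.7 CPM in the others, and leucogen libraries from 32.6 to 40.6 CPM. Sgk1 was the only one of the 7 genes whose mean was lower in model than in normal libraries, by -0.58 ± 0.20 on the log2 scale, and the only one whose mean was higher in leucogen than in model libraries, by 0.42 ± 0.20. QJSB and model differed by 0.72 ± 0.36, and QJSB replicate 1 lay inside the model range.

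Zbtb16 encodes PLZF, a transcription factor of blood stem cells and innate-like lymphocytes that glucocorticoids induce strongly in many tissues. Its model libraries were the most scattered relative to their mean, with 37.4, 19.6 and 8.17 CPM. Normal libraries held 14.1, 15.4 and 22.5 CPM, QJSB libraries 26.0, 22.7 and 27.5 CPM and leucogen libraries 9.98, 8.85 and 6.84 CPM. Leucogen, at a mean of 8.56 ± 1.59 CPM (SD, n = 3), lay below normal, at 17.3 ± 4.52 CPM, and below QJSB, at 25.4 ± 2.42 CPM, without overlap. Against model it was -1.33 ± 0.51 with overlap at model replicate 3, and without model replicate 1 that value moved to -0.67. The model value against normal, 0.32 ± 0.51, turned to -0.32 without the same library.

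**Figure D1:**
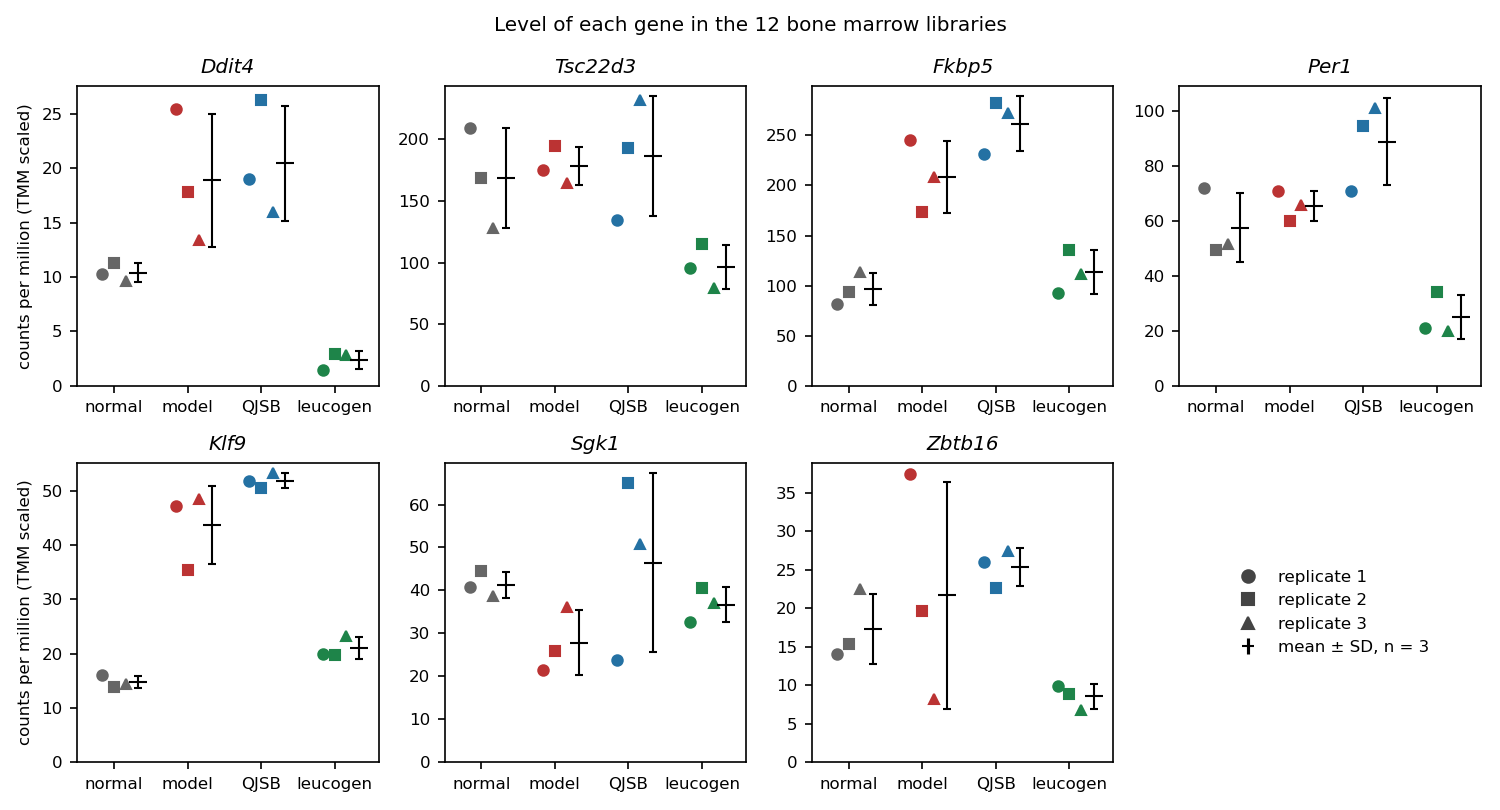
Level of each of the 7 genes in TMM-scaled CPM (linear axes from 0) in the 3 libraries of each group, with the mean and SD as black bars. Ddit4, Tsc22d3, Per1 and Zbtb16 were lowest in the leucogen group by mean, Klf9 and Fkbp5 were high in model and QJSB libraries, and Sgk1 was lowest in the model group.

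By FPKM, which corrects for transcript length, Tsc22d3 was the most abundant of the 7 in normal marrow, at 20.6 ± 4.74 (SD, n = 3). Fkbp5 followed at 8.59 ± 1.57, Per1 at 6.86 ± 1.42, Ddit4 at 6.08 ± 0.452, Klf9 at 4.47 ± 0.300, Sgk1 at 3.98 ± 0.276 and Zbtb16 at 3.36 ± 0.920. In this order only Tsc22d3 and Fkbp5, and Ddit4 and Klf9, were neighbours whose libraries did not overlap. The order changed in model libraries, where Klf9 at 14.3 ± 2.44 FPKM and Ddit4 at 12.1 ± 4.49 FPKM stood above Per1 at 8.46 ± 1.02 FPKM, Klf9 and Per1 without overlap and Ddit4 and Per1 with it. In leucogen libraries Ddit4 was last, at 1.35 ± 0.436 FPKM, its range meeting that of Zbtb16 at 1.61 ± 0.346 FPKM. Fkbp5 and Tsc22d3 led in QJSB libraries at 23.2 ± 0.711 and 22.8 ± 4.97 FPKM and could not be ranked.

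The loci are given in GRCm38 coordinates as deposited. Ddit4 (ENSMUSG00000020108) is a short gene at chr10:59949675-59951770 and Sgk1 (ENSMUSG00000019970) lies on the same chromosome at chr10:21882184-21999903. Tsc22d3 (ENSMUSG00000031431) is at chrX:140539528-140600659, Fkbp5 (ENSMUSG00000024222) at chr17:28399095-28517524, Per1 (ENSMUSG00000020893) at chr11:69095217-69109960, Klf9 (ENSMUSG00000033863) at chr19:23141226-23166911 and Zbtb16 (ENSMUSG00000066687) at chr9:48654311-48835945. In the GENCODE M21 annotation 5 of the 7 overlap no other gene. Fkbp5 overlaps 4 other gene models, of which AC154912.1 and Gm22146 lie on the opposite strand, and Klf9 a microRNA on its own strand. None of these has a row in the deposited table. Reads from them could have been counted to the host gene, from the opposite strand only if counting ignored strand.

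The promoters of the genes are shown because the receptor acts through short elements in DNA. No window was available for Zbtb16, whose promoter was not searched. For the other 6 genes RefSeq start sites on GRCm38.p6 gave 14 windows of 300 bases, 250 before and 50 after the start. They were searched on both strands for the half-site AGAACA, for the full element, which is AGAACA and its reverse complement TGTTCT with 3 bases between them, and for the E-box CACGTG, the element of clock proteins. Of all 32851 windows, 19.0% held a half-site, 7.15% an E-box and 3 windows (0.00913%) a full element. One of those 3 was a window of Sgk1. The bases before the start are printed here 5′ to 3′, short of any annotated untranslated exon, with the matches in capitals.

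Sgk1, chr10:21993640-21993889, plus strand: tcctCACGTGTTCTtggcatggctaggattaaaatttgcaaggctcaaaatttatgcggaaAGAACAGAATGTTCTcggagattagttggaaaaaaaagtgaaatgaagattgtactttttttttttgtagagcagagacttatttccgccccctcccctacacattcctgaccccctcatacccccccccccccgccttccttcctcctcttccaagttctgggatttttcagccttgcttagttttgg
Tsc22d3, chrX:140600660-140600772, minus strand: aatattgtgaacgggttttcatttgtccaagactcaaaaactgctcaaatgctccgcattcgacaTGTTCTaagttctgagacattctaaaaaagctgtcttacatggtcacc
Per1, chr11:69098699-69098947, plus strand: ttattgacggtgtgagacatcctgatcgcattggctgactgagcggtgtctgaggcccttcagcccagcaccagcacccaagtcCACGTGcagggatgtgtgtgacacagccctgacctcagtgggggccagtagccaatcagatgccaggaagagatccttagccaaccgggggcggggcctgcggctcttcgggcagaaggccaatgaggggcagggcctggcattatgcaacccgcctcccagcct
Fkbp5, chr17:28486150-28486399, minus strand: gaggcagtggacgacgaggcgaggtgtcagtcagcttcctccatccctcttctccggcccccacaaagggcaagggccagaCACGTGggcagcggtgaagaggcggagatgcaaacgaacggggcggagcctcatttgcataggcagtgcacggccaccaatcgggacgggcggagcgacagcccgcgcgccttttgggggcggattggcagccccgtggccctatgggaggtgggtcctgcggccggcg
Ddit4, chr10:59951835-59952020, minus strand: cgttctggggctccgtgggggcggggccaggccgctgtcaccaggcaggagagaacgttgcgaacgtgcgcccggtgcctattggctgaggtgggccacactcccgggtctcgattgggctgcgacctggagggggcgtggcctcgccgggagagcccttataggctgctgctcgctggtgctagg

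The Sgk1 window held the full element, beginning 189 bases before the start. A further half-site in the same window overlapped its E-box. Among the other 5 windows of Sgk1, 2 held a half-site. The most distal of 3 Tsc22d3 windows held a half-site only, and 1 of 2 Per1 windows and the single Fkbp5 window an E-box only. Ddit4 and Klf9 held none of the 3 motifs in their single windows, which says only that these letters are not in that stretch. Counts were summed per gene, so the use of one start site over another could not be read from them.

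Model against normal asks what cyclophosphamide did to the marrow. Of the 7 genes, 3 passed the cutoffs, Klf9, Fkbp5 and Ddit4, all higher in model, beside 35.1% of 14752 genes tested, and the median log2 fold change was 0.32 for the 7 and 0.02 for all genes. Among 29 other glucocorticoid-responsive genes that were tested, 5 rose (16.1% of all genes did) and 9 fell (19.0% of all genes did). Their median was -0.20. This list, like the others below, was chosen with earlier results of these data known. Its counts and p-values here and below are therefore no independent support. The metallothionein Mt1, a metal-binding protein, rose by a log2 fold change of 2.77 ± 0.34 (adjusted p = 4.7e-04, edgeR quasi-likelihood test). Il7r, the interleukin-7 receptor that early B cells need, fell by 3.58 ± 0.48 (adjusted p = 0.00155, edgeR). Dusp1, a phosphatase that quenches MAP kinases, fell by 2.49 ± 0.50 (adjusted p = 0.00834, edgeR), and Btg1, a brake on cell division, by 1.75 ± 0.15 (adjusted p = 7.9e-05, edgeR). Without normal replicate 1 the list count fell from 14 to 8, with 3 rises and 5 falls, and without normal replicate 2 to 9. The share of all genes past the cutoffs fell from 35.1% to 28.1% and 27.4% in these fits. Pre-B markers, 9 genes, summed to 1029 to 1226 CPM in normal and 20.6 to 222 CPM in model libraries, and their part in the fall of Il7r was not tested. Promyelocyte markers, 5 genes, summed to 732 to 948 CPM in normal and 6580 to 9587 CPM in model libraries, and all 5 rose. Their part in the levels of Klf9, Fkbp5 and Ddit4 was not tested.

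Leucogen against model asks what the reference drug changed in cyclophosphamide-treated marrow, and it is the comparison on which Ddit4 was chosen. Here 5 of the 7 genes passed the cutoffs, all lower in leucogen (Ddit4, Per1, Klf9, Tsc22d3 and Fkbp5), beside 23.1% of 14184 genes. Since Ddit4 was chosen on this contrast, nothing is read from that count. The median was -1.04 for the 7 and -0.05 for all genes. Of the 29 other responsive genes 8 fell, against 11.5% of all genes, and 4 rose, against 11.6%. The median of the 29 was -0.41. Pdk4, a kinase that turns muscle and other tissues from glucose to fat, fell by 2.52 ± 0.42 (adjusted p = 0.00534, edgeR). Cd163, the haemoglobin scavenger receptor of macrophages, fell by 2.01 ± 0.49 (adjusted p = 0.0219, edgeR). Anxa1, an anti-inflammatory protein abundant in neutrophils, rose by 1.77 ± 0.45 (adjusted p = 0.0245, edgeR), and the clock gene Per2 2.83-fold (log2 SE 0.15, adjusted p = 0.00158, edgeR). Without leucogen replicate 1 or replicate 3 the list count fell from 12 to 5 and 4, and the count over all genes from 3275 to 1724 and 1239. Late neutrophil markers differed between these groups as given above, and markers of macrophages, 10 genes, summed to 313 to 362 CPM in leucogen and 392 to 570 CPM in model libraries. Of these 10 genes, 3 fell and 1, Cd5l, rose. Promyelocyte markers summed to 3414 to 4565 CPM in leucogen and 6580 to 9587 CPM in model libraries, and 4 of the 5 fell, with a median log2 fold change of -0.96. The part of these cells in the values was not tested.

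Leucogen against normal sets the same libraries beside marrow of mice given saline only. The 4 members past the cutoffs, Ddit4, Per1, Zbtb16 and Tsc22d3, were all lower in leucogen, beside 37.7% of 14637 genes. Tsc22d3 missed the cutoffs without leucogen replicate 1, and Zbtb16 in the fit of all 12 libraries. Fkbp5 and Klf9 were not lower, with log2 fold changes of 0.25 ± 0.16 and 0.52 ± 0.13, and Sgk1 was at -0.15 ± 0.11. Among the other 29 responsive genes 11 fell (19.8% of all genes) and 6 rose (17.8%), with a median of -0.40. The largest changes were falls, of Il7r by 4.74 ± 0.13 (adjusted p = 1.1e-08, edgeR), Dusp1 by 3.56 ± 0.60 (adjusted p = 0.00644, edgeR), Cd163 by 3.37 ± 0.23 (adjusted p = 2.4e-06, edgeR) and Btg1 by 2.26 ± 0.12 (adjusted p = 4.1e-07, edgeR). The comparisons of leucogen with model, with normal and with QJSB all share the leucogen libraries, on which Ddit4 was chosen.

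QJSB against model asks what the granule changed. None of the 7 genes passed the cutoffs, beside 0 of 14486 genes (0%) in edgeR and 8 genes, none of the 7, in DESeq2. At an unadjusted p under 0.05 edgeR counted 723 genes (4.99%), with Per1 of the 7 among them, and DESeq2 907 (4.17%), with Per1 and Sgk1. Which of the 7 fell under that p changed with the fit, and limma-trend on FPKM had none. This only describes the fits, and nothing is read from it. Per1 was at 0.42 ± 0.18 and Klf9 at 0.23 ± 0.17, and their QJSB libraries lay above the model libraries, for Per1 only just, at 70.9 CPM or more against 70.8 or less. The share of all genes without overlap between these groups was not counted, so nothing is read from this. Adding the fold cutoff left 446 genes (3.08%) in edgeR and none of the 7. The log2 fold changes were between 0.05 ± 0.21 for Tsc22d3 and 0.72 ± 0.36 for Sgk1. For Ddit4 the value was 0.09 ± 0.29, and it ran from -0.12 to 0.40 over the alternatives. Deviations of same-numbered QJSB and model libraries from their group means were correlated (r = 0.426, 0.124 and 0.104), which does not establish a pairing. With the replicate number as a block, 18 of 14486 genes passed, none of them a member or one of the other 29 responsive genes, while 1434 (9.90%) were under an unadjusted p of 0.05, with Sgk1 of the 7 among them. Of the 29, 0 passed in edgeR and 0 in DESeq2. At an unadjusted p under 0.05 edgeR counted 4 of the 29, DESeq2 5 of its 30 and the blocked fit 8 of the 29. The largest values that did not pass were 1.69 ± 0.68 for Dusp1, -1.47 ± 0.56 for Il7r, 1.04 ± 0.50 for Cdkn1c, an inhibitor of the cell cycle, and 1.00 ± 0.71 for Lcn2, a granule protein of neutrophils (adjusted p from 0.767 to 0.777, edgeR). With model replicate 1 and QJSB replicate 1 both left out, 23 of 14399 genes passed, and again no member.

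QJSB against normal shares the normal libraries with the model comparison. Klf9, Fkbp5, Ddit4 and Per1 passed the cutoffs, all higher in QJSB, beside 37.9% of 14817 genes. Among the other 29 responsive genes 4 rose (18.0% of all genes) and 7 fell (19.9%), with a median of 0.38. Mt1 rose by 2.96 ± 0.25 (adjusted p = 1.1e-04, edgeR) and Cebpb, a transcription factor of myeloid cells, by 2.18 ± 0.32 (adjusted p = 0.00123, edgeR). Il7r fell by 5.02 ± 0.39 (adjusted p = 7.7e-05, edgeR) and Tnfaip3, a brake on NF-κB, by 1.64 ± 0.15 (adjusted p = 1.6e-04, edgeR). Without QJSB replicate 1 the count rose from 11 to 19, with 12 rises in place of 4 and 7 falls as before. The share of all genes past the cutoffs rose from 37.9% to 41.0% in that fit.

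QJSB against leucogen compares both drugs without the model libraries, but it reuses the leucogen libraries on which Ddit4 was chosen. Nothing is read from the count of members here either. All members but Sgk1 passed the cutoffs, 6 of 7 and all higher in QJSB, beside 24.6% of 14266 genes. Ddit4 stood at 20.4 ± 5.30 CPM (SD, n = 3) in QJSB and 2.39 ± 0.837 CPM in leucogen libraries, a log2 fold change of 3.06 ± 0.32, the largest of the 7. Per1 followed at 1.79 ± 0.24, then Zbtb16 at 1.53 ± 0.19, Klf9 at 1.27 ± 0.14, Fkbp5 at 1.17 ± 0.17 and Tsc22d3 at 0.92 ± 0.22. Tsc22d3 missed the cutoffs without QJSB replicate 3, leucogen replicate 1 or leucogen replicate 3, and Sgk1 passed them without QJSB replicate 1. With all libraries Sgk1 was at 0.30 ± 0.33. The median was 1.27 for the 7 and 0.03 for all genes. Of the other 29 responsive genes 13 were higher in QJSB, against 12.9% of all genes, and 1, Per2, was lower, against 11.7%. Their median was 0.72. Since the list too was chosen with earlier results of these data known, its count is no independent support. Dusp1 led with 2.78 ± 0.75 (adjusted p = 0.036, edgeR), followed by Pdk4 with 2.07 ± 0.51 (adjusted p = 0.0199, edgeR), Mt2 with 1.98 ± 0.46 (adjusted p = 0.0156, edgeR) and Cd163 with 1.96 ± 0.33 (adjusted p = 0.00524, edgeR). The list count fell from 14 to 8 without leucogen replicate 1 and to 6 without leucogen replicate 3, and the counts over all genes from 3511 to 2157 and 1544. Late neutrophil markers summed to 6922, 35536 and 26214 CPM in QJSB libraries and to at least 47260 CPM in each leucogen library. Promyelocyte markers summed to 8169 to 9022 CPM in QJSB and 3414 to 4565 CPM in leucogen libraries, and 3 of the 5 were higher in QJSB. The part of these cells in the differences was not tested.

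**Figure D2:**
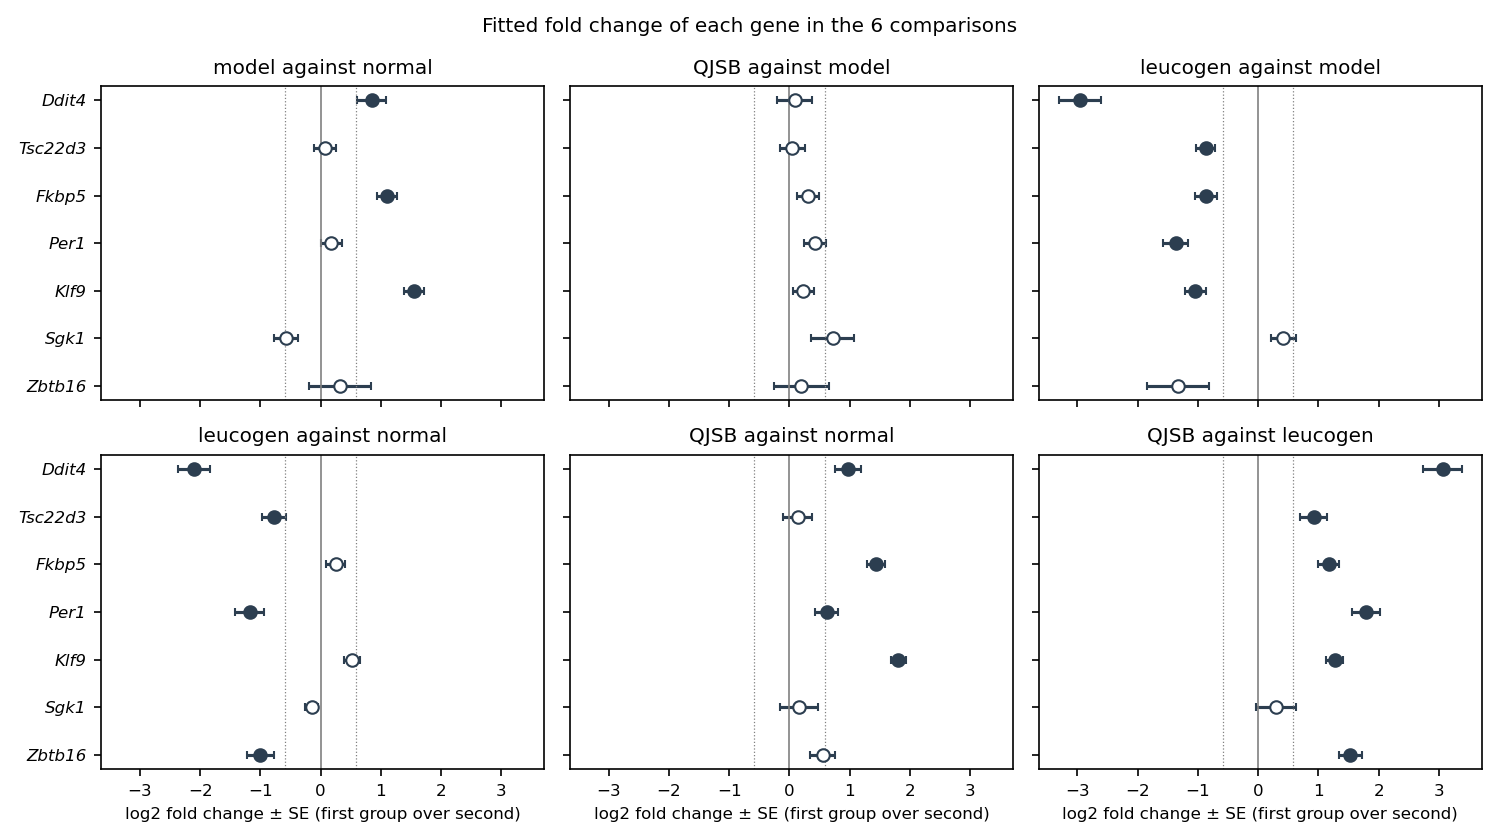
Fitted log2 fold change of each gene (horizontal axis, first group over second, bars 1 SE) in the 6 comparisons, with filled points past a 1.5-fold change (dotted lines) and an adjusted p under 0.05. Ddit4 lies farthest from 0 in the comparisons of leucogen with each other group, and no point is filled for QJSB against model.

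**Figure D3:**
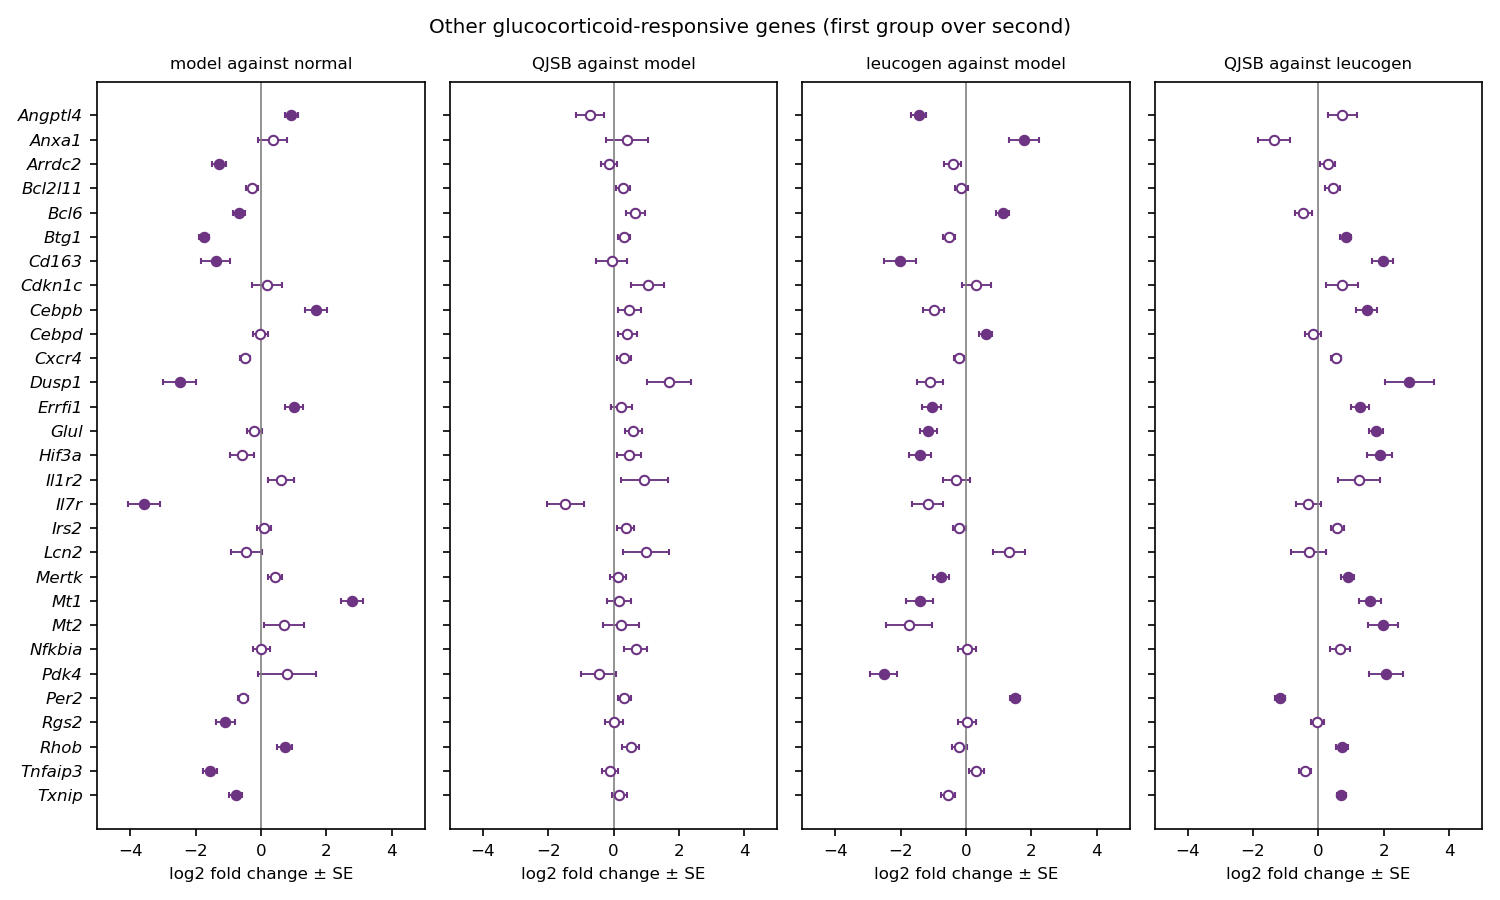
Log2 fold change with 1 SE of the 29 other glucocorticoid-responsive genes tested (vertical axis, 1 gene per line) in 4 comparisons, filled where the gene passed the cutoffs. Of the filled points 5 lie right and 9 left of 0 for model against normal, 4 right and 8 left for leucogen against model, and 13 right and 1 left for QJSB against leucogen.

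The receptor and its helpers did not move as one group. List counts here and for the further lists stand beside all genes, of which 16.1% rose and 19.0% fell in model against normal, 11.6% rose and 11.5% fell in leucogen against model, and 12.9% were higher and 11.7% lower in QJSB than in leucogen. Of 17 tested genes for the receptor, its chaperones, hormone-converting enzymes and cofactors, 2 rose and 3 fell in model against normal, and 2 rose and 4 fell in leucogen against model. Nr3c1 itself was at 200 ± 7.79 CPM in normal, 127 ± 6.83 in model, 126 ± 21.8 in QJSB and 288 ± 56.3 in leucogen libraries (SD, n = 3). Its log2 fold changes were -0.67 ± 0.11 for model against normal (adjusted p = 0.00192, edgeR) and 1.20 ± 0.16 for leucogen against model (adjusted p = 0.00242, edgeR). For leucogen against normal the value was 0.54 ± 0.12 (adjusted p = 0.0038, edgeR), short of the fold cutoff. Nr3c1 was named after its values were seen. Hsp90ab1, a chaperone of the receptor, rose by 1.34 ± 0.21 in model against normal and fell by 1.63 ± 0.24 in leucogen against model. Nrip1, a corepressor, fell by 1.15 ± 0.17 in the former, and Hsd11b1, which makes active hormone from its inert form inside cells, rose by 1.27 ± 0.22 in the latter. The adjusted p-values of these 4 changes in edgeR ran from 0.00118 to 0.00559. Against normal, 3 genes rose and 2 fell in QJSB, with Hsp90ab1 at 1.56 ± 0.18 and Nrip1 at -1.38 ± 0.22, and 2 rose and 2 fell in leucogen, with Hsd11b1 at 2.15 ± 0.14 and Nrip1 at -1.88 ± 0.10. QJSB exceeded leucogen for Hsp90ab1 by 1.82 ± 0.21 and was below it for Hsd11b1, at -1.24 ± 0.28. The adjusted p-values of these last 6 changes in edgeR ran from 4.4e-07 to 0.0148.

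Genes that glucocorticoids repress, mostly inflammatory mediators, were sparse in this tissue. Of 14 such genes 8 passed the filter on low counts in model against normal, where 4 fell and 1 rose. Il1b, an inflammatory cytokine, fell by 4.94 ± 0.38 (adjusted p = 4.9e-05, edgeR). The other 3 that fell, Ccl5, a chemokine of T cells, Il6 and Ccl3, passed the filter through the normal libraries alone, with 20 to 35, 16 to 24 and 10 to 18 counts there and 0 to 4, 1 to 5 and 1 to 4 in model libraries, so no fold is given for them. Il6 and Ccl3 were named after their values were seen. In leucogen against model 1 of 6 rose, Tnf by 1.40 ± 0.27, and 1 fell, Icam1 by 0.78 ± 0.25 (adjusted p = 0.00821 and 0.0476, edgeR). Nos2, the inducible nitric oxide synthase, had no count in normal libraries. It had 1 to 54 counts in model, 6 to 107 in QJSB and 19 to 68 in leucogen libraries. In leucogen against normal it passed the filter through the leucogen libraries alone, so no fold is given. Leucogen and model differed by 0.70 ± 0.93 on the log2 scale, without passing (adjusted p = 0.611, edgeR). Between QJSB and leucogen 3 of 6 were lower in QJSB, Il1b by a log2 fold change of -1.83 ± 0.44 and Cxcl10 by -1.18 ± 0.34 (adjusted p = 0.017 and 0.0305, edgeR).

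Ddit4 acts on mTORC1, and 23 other genes of that complex and its regulators were tested. In model against normal 3 rose and 4 fell. Deptor, an inhibitor that binds the complex, rose by 1.85 ± 0.14 and Sesn1, a stress-induced inhibitor upstream of the complex, fell by 1.58 ± 0.17 (adjusted p = 4.3e-05 and 2.3e-04, edgeR). In leucogen against model 2 rose and 5 fell, among them Tbc1d7, a subunit of the TSC complex through which Ddit4 works, by 1.18 ± 0.34 and Sesn2, a leucine sensor, by 1.12 ± 0.34 (adjusted p = 0.0314 and 0.0367, edgeR). The scaffold Rptor and the kinase Mtor did not pass in any of the 6 comparisons. QJSB exceeded leucogen for 7 of the 23 genes and was below it for 1, with Tbc1d7 at 1.13 ± 0.31 and the translation repressor Eif4ebp2 at 1.11 ± 0.18 (adjusted p = 0.0266 and 0.00476, edgeR). The close relative Ddit4l was nearly silent, at group means from 0.388 to 0.905 CPM, and differed between leucogen and model by 0.90 ± 0.62 on the log2 scale, without passing.

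Per1 has relatives in the clock that did not follow it. Per2 was at 20.9 ± 1.06 CPM in normal, 14.4 ± 0.848 in model, 18.3 ± 2.27 in QJSB and 40.2 ± 4.82 in leucogen libraries (SD, n = 3), so that in leucogen against model Per1 was 2.58-fold lower and Per2 2.83-fold higher. Per3 was at 16.0 ± 1.88 CPM in normal and at 46.8 ± 3.89, 56.0 ± 14.9 and 59.6 ± 9.72 CPM in model, QJSB and leucogen libraries, and Arntl, the activating partner of Clock, from 56.5 to 69.9 CPM in normal, 9.80 to 13.1 in model, 9.24 to 11.4 in QJSB and 5.23 to 7.54 CPM in leucogen libraries. Of 17 tested clock genes 5 rose and 2 fell in model against normal, with Arntl at -2.45 ± 0.17 and Bhlhe41, a clock repressor, at -1.82 ± 0.38 (adjusted p = 3.3e-05 and 0.00564, edgeR), and 1 rose and 1 fell, Per2 and Arntl, in leucogen against model. Clock genes vary over the day, and the hour at which each group was killed is not given in the sources used here. Between QJSB and leucogen Per2 was lower and Arntl higher in QJSB, at -1.17 ± 0.16 and 0.73 ± 0.22 (adjusted p = 0.00316 and 0.0391, edgeR). Of 13 tested relatives of the 7 genes, 1 rose and 2 fell in model against normal and 2 rose and 2 fell in leucogen against model. Per3 rose by 1.54 ± 0.15 and Klf16 fell by 1.05 ± 0.23 in the former (adjusted p = 1.3e-04 and 0.00721, edgeR). Sgk3 fell by 0.59 ± 0.16 in model against normal (adjusted p = 0.02, edgeR) and rose by 0.68 ± 0.16 in leucogen against model (adjusted p = 0.015, edgeR), the same direction as the mean of Sgk1, and was lower in QJSB than in leucogen libraries, at -0.98 ± 0.12 (adjusted p = 0.00288, edgeR). Fkbp4, a co-chaperone that opposes Fkbp5, fell by 1.22 ± 0.31 in leucogen against model, and Klf11 by 0.71 ± 0.18 (adjusted p = 0.0246 and 0.0193, edgeR). Klf11 was named after its values were seen.

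Ddit4 also answers to other pathways, whose genes are given here by their counts. Atf4, which encodes the factor of amino acid shortage, and its targets made up 9 tested genes. Of these, 3 rose and 1 fell in model against normal. Chac1, a glutathione-degrading enzyme, was at 1.86 ± 0.60 and Phgdh, which opens serine synthesis, at 1.57 ± 0.17. In leucogen against model 5 fell, Atf4 itself among them, and none rose (11.5% and 11.6% of all genes). Trib3, a pseudokinase, fell by 2.59 ± 0.77, and Psat1, an enzyme of serine synthesis, by 2.05 ± 0.20 (adjusted p = 0.0424 and 0.00158, edgeR). The median of the 9 was -0.82 in that comparison. In QJSB against leucogen 5 were higher in QJSB and none lower (12.9% and 11.7% of all genes), with a median of 0.99, Trib3 at 1.66 ± 0.40 and Psat1 at 1.52 ± 0.22. Of 9 tested targets of low oxygen signalling 4 rose and none fell in model against normal, with Egln3, an oxygen-sensing hydroxylase, at 1.68 ± 0.21 and Car9, a carbonic anhydrase, at 1.62 ± 0.33. In leucogen against model 1 rose, Vegfa by 0.83 ± 0.25, and 1 fell, Pdk1 by 0.75 ± 0.15, and in QJSB against leucogen 3 were higher in QJSB, led by Egln3 at 0.99 ± 0.21 and the glucose transporter Slc2a1 at 0.73 ± 0.23. Of 10 targets of p53, the factor of DNA damage, 1 rose and 2 fell in model against normal, with the death receptor Eda2r at 2.13 ± 0.63 and Trp53inp1, a stress-induced autophagy protein, at -1.81 ± 0.32. In leucogen against model 1 rose and 2 fell, among the latter Cdkn1a, an inhibitor of the cell cycle, by 0.88 ± 0.25 and Bax, which promotes cell death, by 0.75 ± 0.20. In QJSB against leucogen 2 were higher in QJSB, among them Cdkn1a at 0.99 ± 0.24, and 1 was lower, Ccng1 at -0.68 ± 0.12. The adjusted p-values of the changes named in these 3 lists ran from 2.4e-04 to 0.0442 in edgeR. In QJSB against model 0 of 98 tested genes of these 8 pathway lists passed in edgeR and 0 of 113 in DESeq2, with 2 and 5 at an unadjusted p under 0.05. With the replicate block 0 of the 98 passed and 10 were under that p. All genes under it made up 4.99%, 4.17% and 9.90% in these fits. The part of any of these pathways in the levels of Ddit4 was not tested.

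**Figure D4:**
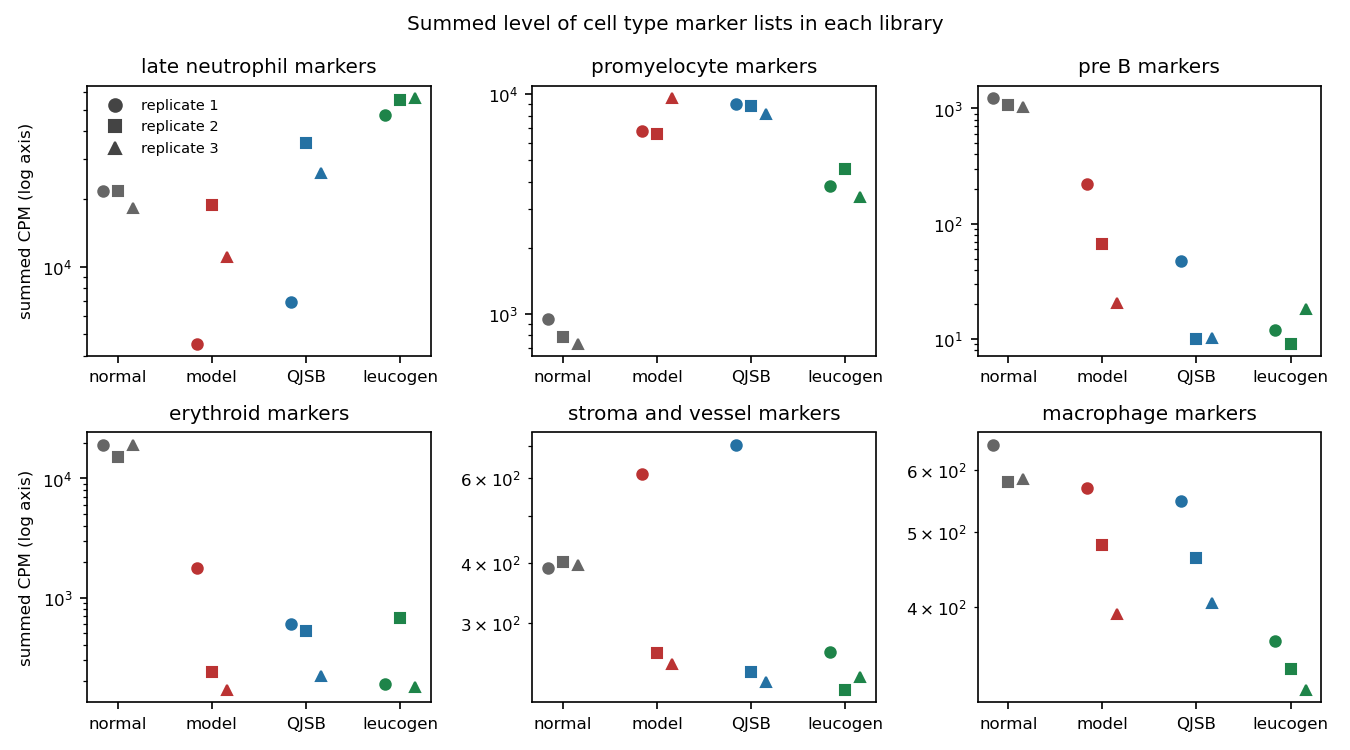
Summed CPM of 6 cell type marker lists in each library (log axes), by group and replicate. Late neutrophil sums are highest in leucogen libraries, at 47260 to 56170, erythroid and pre-B sums are highest in normal libraries, and stromal sums stand out in model replicate 1 and QJSB replicate 1, at 613 and 704.

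Over the 12 libraries, the genes most like Ddit4 in log2 CPM, of 10086 genes with a mean of at least 5 CPM, were Hadha (Pearson r = 0.964), Eif3i (0.956), Ndufb9 (0.954), Tomm22 (0.953) and Cox6b1 (0.951). Hadha encodes an enzyme of fatty acid oxidation, Eif3i a subunit of a translation initiation factor, Ndufb9 and Cox6b1 subunits of the respiratory chain and Tomm22 a subunit of the mitochondrial import pore. After subtraction of the group means the r of these genes with Ddit4 was lower. It was 0.42 for Hadha and Eif3i, 0.34 for Ndufb9, 0.54 for Tomm22 and 0.52 for Cox6b1. The range of these genes was far smaller than that of Ddit4. Hadha was at 151 ± 3.16 CPM in normal, 173 ± 4.80 in model, 176 ± 12.9 in QJSB and 105 ± 10.0 in leucogen libraries (SD, n = 3). Among the 7 genes Per1 was the most like Ddit4 (r = 0.91, rank 34), followed by Tsc22d3 (0.80), Zbtb16 (0.76), Fkbp5 (0.68), Klf9 (0.59) and Sgk1 (-0.05).

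Within the 7, Fkbp5 and Klf9 were the most alike (r = 0.94), and Per1 and Tsc22d3 were at 0.91. Once each library was set against its group mean, Per1 and Tsc22d3 kept an r of 0.77, and Fkbp5 and Klf9 were at 0.25, Ddit4 and Per1 at 0.24 and Ddit4 and Fkbp5 at 0.52. These values describe 12 libraries that share 4 treatments and, within groups, cell composition, and no test was made of them.

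**Figure D5:**
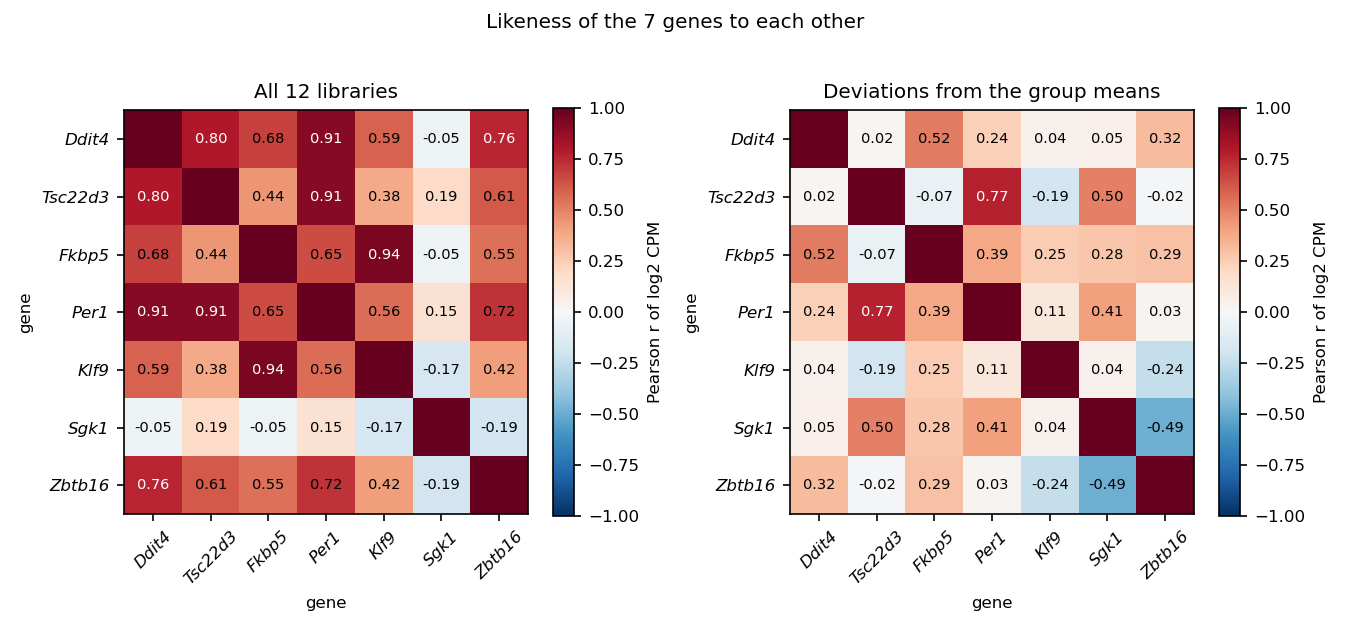
Pearson r of log2 CPM between each pair of the 7 genes, over all 12 libraries (left) and after subtraction of the group means (right), with red for positive and blue for negative values. Fkbp5 and Klf9 are at 0.94 on the left and 0.25 on the right, Per1 and Tsc22d3 at 0.91 and 0.77.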

How the data were processed

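RNA of bone marrow from 12 mice was measured after removal of ribosomal RNA, with strand-specific libraries. The authors used Seqtk for filtering and Hisat2 for mapping, on the genome GRCm38.p4. The counting program, its strand setting and the annotation are not given in the sources used here. The authors deposited read counts per gene as whole numbers without normalization, and FPKM, which the authors computed from counts, transcript length and the fragment total. Of the 34745 genes, 11677 had no count. No column was left unused, and no row lacked a gene identifier.

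Counts were fitted with edgeR 4.0.16 (TMM, filterByExpr, glmQLFit, glmQLFTest) in R 4.3.3, in a fit of the 2 groups compared, with Benjamini-Hochberg adjustment over all genes. The 6 libraries of a comparison give a spread between mice, and no 2 replicates were as close as counting error alone would leave them. A gene passed at a change of over 1.5-fold and an adjusted p under 0.05, the fold cutoff being that of the study. Log2 CPM used a prior count of 2. The members and the 9 gene lists of pathways and 12 of markers were chosen with earlier results of these data known. Each list was named with its 4 (other glucocorticoid-responsive) or up to 2 (other lists) genes of largest change that passed, or the 4 largest where none did. For the other lists this is printed for model against normal, leucogen against model and QJSB against leucogen. Genes like Ddit4 were the 5 with the highest r, unnamed gene models and antigen receptor segments passed over. Same-numbered deviations from group means were correlated over 15266 genes, to see whether replicate numbers might pair libraries. The values were, between QJSB and model, 0.426, 0.124 and 0.104, each over 0.1. With 3 libraries per group they do not establish a pairing, so the replicate block is given only as an alternative. Fits were tested on simulated counts. Alternatives were DESeq2 1.42.0, its size factors, total counts, no filter, all 12 libraries in one fit, a replicate block, limma-trend 3.58.1 on log2(FPKM + 0.1) (genes with mean FPKM of 0.1 or more), and the omission of single libraries. Motif matches and promoter sequences came from RefSeq on GRCm38.p6 and overlaps from GENCODE M21.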

Additional observations from a re-analysis of the deposited data

How the results depend on the processing

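For the other glucocorticoid-responsive genes, leaving out a library in turn gave 8 to 15 genes past the cutoffs in model against normal (14 with all libraries), 4 to 14 in leucogen against model (12), 15 to 18 in leucogen against normal (17), 10 to 19 in QJSB against normal (11), 6 to 20 in QJSB against leucogen (14) and 0 to 0 in QJSB against model. The low counts in model against normal came without normal replicate 1 (8) and replicate 2 (9), where 28.1% and 27.4% of all genes passed. Every setting that kept all libraries stayed within 1.5 times of these counts. Of 553 alternatives for the 7 genes, 547 moved by less than 1 SD of the replicates, and no value past the cutoffs changed sign. Ddit4 kept its calls in the 4 comparisons other than model against normal and QJSB against model under each alternative. Sgk1 passed in 4 of 13 alternatives of model against normal, and Zbtb16 in 4 of 13 of leucogen against model. Of 316 alternatives for the named responsive genes, 298 kept the call and 18 lost it, 5 of them for Anxa1 in leucogen against model. Other lists moved by over 1.5 times in 73 of 632 alternatives. Total counts in place of TMM moved the median of all genes from -0.05 to -0.22 in leucogen against model, and turned 1640 rises and 1635 falls into 1150 and 2655 (1181 and 2438 on FPKM), with 3 rises and 12 falls (3 and 10 on FPKM) in the responsive list in place of 4 and 8. In model against normal they turned 2368 rises and 2803 falls into 3024 and 2346. With the replicate block, 14 responsive genes passed in model against normal, 11 in leucogen against model and 17 in leucogen against normal. In QJSB against normal 11 passed, and in QJSB against leucogen 16. Per1 lost its call in QJSB against normal, while Sgk1 gained one in model against normal and Zbtb16 in leucogen against model. For QJSB against model the block changed no call of the 7 genes or the list. Between QJSB and leucogen the correlations of same-numbered deviations were 0.182, 0.132 and 0.08. The cause of these shifts was not tested. Leucogen counts of Ddit4, 18 to 40 per library, set the precision of its level there.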

Other observations

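Further marker lists differed between groups as follows. Eosinophil markers, 6 genes, summed to 1363 to 1730 CPM in normal and 59.1 to 260 CPM in all cyclophosphamide libraries, and markers of mature B cells, 7 genes, to 759 to 860 and 2.22 to 18.6 CPM. T and NK cell markers, 9 genes, summed to 83.0 to 104 CPM in normal, 104 to 130 in model, 107 to 153 in QJSB and 63.6 to 88.2 in leucogen libraries. Nkg7, a granule protein gene named after its values were seen, made up most of that sum in model and QJSB libraries. In model against normal Nkg7 rose and the other 8 fell (median of the 9 on the log2 scale -2.85), and in QJSB against normal Nkg7 rose and 7 fell (median -2.73). The 8 genes other than Nkg7 summed to 62.2 to 84.0 CPM in normal, 7.70 to 14.8 in model, 9.56 to 17.7 in QJSB and 18.8 to 34.9 in leucogen libraries. Monocyte markers, 4 genes, were at 664 to 825 CPM in normal and 1196 to 2673 CPM in the other libraries. Of these 4 genes, 3 rose and 0 fell in model against normal. In QJSB against normal 2 rose and 1 fell, and in leucogen against normal 3 rose and 1 fell. Stem and progenitor markers, 7 genes, were at 158 to 177 CPM in normal and 256 to 430 CPM in model libraries. They were at 258 to 423 CPM in QJSB and 170 to 188 CPM in leucogen libraries. Megakaryocyte markers, 6 genes, were at 104 to 400 CPM over all libraries. The part of these cells in the levels of the 7 genes was not tested.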
